A study of Mus musculus with 6 samples.

Results

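Notch receptors and their ligands were examined as a family of 8 genes, which were found by symbol among the 55416 genes of the count table: *Notch1*, *Notch2*, *Notch3* and *Notch4* for the receptors, and *Dll1*, *Dll4*, *Jag1* and *Jag2* for the ligands. All 8 were among the 16296 genes with enough counts to be tested. Coronary endothelial cells (ECs) were sorted by FACS for membrane GFP (mGFP) from the ventricles of E15.5 mouse hearts, and their RNA was sequenced in 3 libraries of ControlΔEC embryos and 3 of Wt1KOΔEC embryos. ControlΔEC embryos were Pdgfb-CreERT2/+; Wt1-+/+; R26-mTmG/+, and Wt1KOΔEC embryos were littermates that were Pdgfb-CreERT2/+; Wt1-LoxP/LoxP; R26-mTmG/+. All dams received tamoxifen at 75 mg/kg between E11.5 and E13.5, so the controls also carried the Cre and the reporter and were also exposed to tamoxifen, but had no LoxP allele of *Wt1*. The Cre is expressed under the control of *Pdgfb*, and mGFP marks only cells in which it had recombined the reporter. The question was which of the genes that send and receive the Notch signal differed when *Wt1*, which encodes a zinc finger transcription factor, was deleted in these ECs.

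Notch receptors are single-pass membrane proteins that are activated by ligands on a neighbouring cell. Binding exposes the receptor to cleavage by ADAM proteases and then by γ-secretase, and the released intracellular part joins RBPJ and Mastermind proteins on DNA to switch on genes of the Hes and Hey families. In growing vessels, *Dll4* is the ligand of tip cells that restrains sprouting of their neighbours through *Notch1*, Jagged ligands can counteract Dll4 signalling when the receptor carries Fringe sugars, *Notch4* is a receptor largely restricted to endothelium, and *Notch3* is the receptor of mural cells. The same pathway is needed for the arterial identity of ECs.

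The labels held for the targeted gene, and endothelial markers were abundant in every library. *Wt1* was at 145, 110 and 149 TMM-normalized CPM (counts scaled to library size) in the ControlΔEC libraries and at 14.0, 18.4 and 21.3 CPM in the Wt1KOΔEC libraries, a log2 fold change of −2.91 ± 0.22 (SE; edgeR quasi-likelihood test, adjusted p = 0.00319). The 9 endothelial markers summed to between 5169 and 6454 CPM in ControlΔEC and between 5407 and 6214 CPM in Wt1KOΔEC, with *Pecam1* the most abundant at 1385 to 1852 CPM over all libraries. The libraries held between 26037324 and 44779020 counts, so 3 counts, the limit that a count of 0 allows, made between 0.0608 and 0.119 CPM. Markers of other cell types were also present. The 12 mural cell markers summed to 477 to 648 CPM in ControlΔEC and 330 to 391 CPM in Wt1KOΔEC, and *Vtn* was at 0 in every Wt1KOΔEC library. The paper lists *Rgs5* and *Kcnj8*, both in this list, among arterial genes, and which cells the mural sum came from was not tested. The 8 fibroblast markers summed to 679 to 983 CPM against 1347 to 1554 CPM, with *Col1a1* called higher. In the paper, *Col1a1*, *Col3a1* and *Dcn*, all in this list, are given as overexpressed venous markers, and *Col1a1* also as a fibroblast gene. Which cells this sum came from was not tested. The 5 macrophage markers summed to 182 to 551 CPM against 111 to 168 CPM and the 6 erythroid markers to 6563 to 14300 CPM against 5005 to 8311 CPM, with *Csf1r* and *Hba-a1* the most abundant of each list. The sums were 278 to 379 CPM against 388 to 482 CPM for 5 endocardial markers, 267 to 283 CPM against 277 to 370 CPM for 4 lymphatic markers, 11.7 to 18.0 CPM against 17.5 to 49.7 CPM for 7 epicardial markers and 184 to 253 CPM against 151 to 336 CPM for 7 cardiomyocyte markers. In bulk libraries such as these, fewer cells of a type and less RNA per cell cannot be told apart.

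The *Notch1* and *Notch4* promoters are shown because the levels of these 2 receptors had the highest correlation over the libraries of any pair in the family. The sequences are from RefSeq on GRCm38.p6, 5′ to 3′ on the strand of the gene, and stop at the first base that a GENCODE transcript covers. Capitals mark GC boxes (GGGCGG or its reverse complement CCGCCC). *Notch1* is shown for chr2:26503823-26504072 (minus strand) and *Notch4* for chr17:34564045-34564245 (plus strand).
Notch1: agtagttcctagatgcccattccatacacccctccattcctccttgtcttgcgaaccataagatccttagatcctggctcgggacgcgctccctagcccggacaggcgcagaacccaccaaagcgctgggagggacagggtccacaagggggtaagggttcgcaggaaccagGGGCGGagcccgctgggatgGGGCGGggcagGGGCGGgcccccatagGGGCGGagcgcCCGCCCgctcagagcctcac
Notch4: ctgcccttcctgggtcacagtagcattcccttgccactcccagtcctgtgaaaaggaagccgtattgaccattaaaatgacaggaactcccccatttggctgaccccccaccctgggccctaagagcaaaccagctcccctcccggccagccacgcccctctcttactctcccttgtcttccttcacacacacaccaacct
The *Notch1* window held 5 GC boxes and the *Notch4* window held none, while 32.74% of all 32851 RefSeq promoter windows of 250 bases held at least 1. GC boxes were also found for *Notch2* (5), *Notch3* (4), *Dll4* (2) and *Jag2* (5), and none for *Dll1* or *Jag1*. The letters TGGGAA, the core of RBPJ sites, were in no window of the 8 genes, on either strand, and in 21.59% of all windows. The letters GTGGGAG, a core of WT1 sites, were found on either strand for *Jag2*, at 229 bases before the start, for *Notch2*, at 67 bases, and in 1 of the 2 windows of *Dll1*, at 76 bases, against 8.249% of all windows. All 250 bases of the *Jag2* and *Jag1* windows, and of the *Dll1* window with the match, are covered by GENCODE transcripts of those genes. The letters counted in these windows are therefore in transcribed sequence. A match is a description of the letters and does not show binding.

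In ControlΔEC ECs the family was dominated by *Dll4*, *Notch1* and *Notch4*. Levels of different genes were compared per kb of exonic length. *Dll4* was at 74.4 ± 17.4 CPM per kb (SD, n = 3), *Notch1* at 41.0 ± 14.9 and *Notch4* at 32.2 ± 18.8 CPM per kb. *Jag2* followed at 8.03 ± 1.52, *Jag1* at 4.66 ± 1.06 and *Dll1* at 4.16 ± 0.712 CPM per kb. *Notch2*, at 0.898 ± 0.175, and *Notch3*, at 0.388 ± 0.121 CPM per kb, were the lowest. *Notch1* and *Notch4* overlapped between libraries, and so did *Jag1* and *Dll1*, whereas every other pair of neighbours in this order had ranges that did not overlap. With the length of the longest transcript in place of all exonic bases, *Dll4* (76.4 ± 17.9) and *Notch1* (61.5 ± 22.3 CPM per kb) overlapped too and *Dll1* and *Jag1* changed places. In Wt1KOΔEC the first 4 places were the same, with *Dll4* at 67.8 ± 12.1, *Notch1* at 28.3 ± 3.24, *Notch4* at 15.3 ± 0.727 and *Jag2* at 4.63 ± 0.454 CPM per kb. There *Notch1* and *Notch4* no longer overlapped, and *Jag2* overlapped with *Dll1* (3.94 ± 0.595 CPM per kb), which overlapped with *Jag1* (3.09 ± 0.870 CPM per kb). With the longest transcript, *Jag2* and *Dll1* did not overlap in Wt1KOΔEC.

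None of the 8 genes passed the test between genotypes in edgeR (adjusted p under 0.05 and a log2 change beyond 0.58 either way). Over all genes tested, 0.0245% were called lower and 0.0491% higher. At an unadjusted p under 0.05, 2 members were lower in Wt1KOΔEC (*Notch4* and *Jag2*) and none higher, against 7.12% of all genes lower and 5.96% higher. With DESeq2 on the whole table, *Jag2* was called lower, where 2.63% of all genes were called lower and 2.2% higher. The log2 fold change was negative for 7 of the 8 genes, with a median of −0.40, beside a median of −0.03 over all genes. *Jag2* was the 1 member whose libraries did not overlap between genotypes, and 8.97% of all genes were lower and 10.3% higher without overlap.

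**Figure D1:**
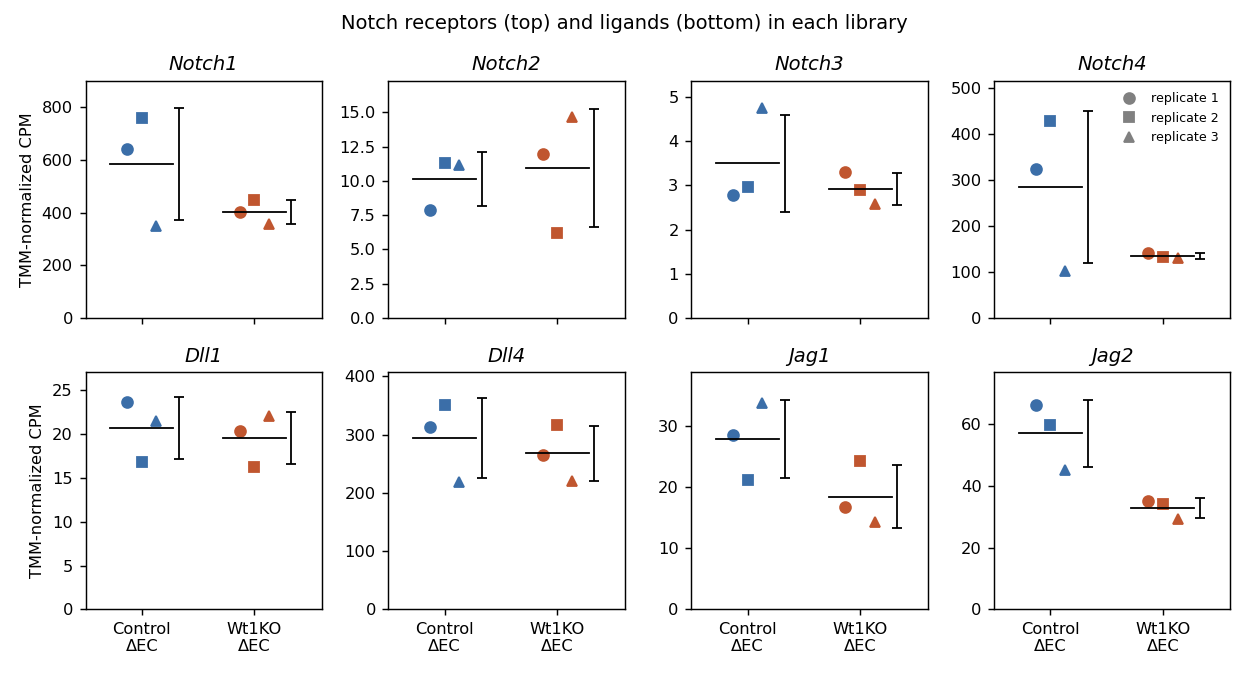
TMM-normalized CPM (vertical axes from 0, 1 scale for each gene) of the 4 receptors and 4 ligands in each library; symbols mark the replicate number, horizontal lines the mean and whiskers the SD of 3 libraries. All 3 Wt1KOΔEC points lie below all 3 ControlΔEC points for *Jag2*, whereas ControlΔEC replicate 3 lies below all Wt1KOΔEC points for *Notch1*, *Notch4* and *Dll4*.

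Among the ligands, *Jag2* (chr12:112871421-112893437, minus strand, GRCm39), a Jagged ligand, was at 66.2, 59.5 and 45.1 CPM in the ControlΔEC libraries and at 35.1, 34.2 and 29.1 CPM in the Wt1KOΔEC libraries. Every Wt1KOΔEC library was therefore below the lowest ControlΔEC library. The log2 fold change was −0.80 ± 0.20 (95% interval −1.25 to −0.34; unadjusted p = 0.00339, adjusted p = 0.199 in edgeR). In DESeq2 on all genes the log2 fold change was also −0.80, with an adjusted p of 0.0106, so the call depends on the tool. Of the 12 mural cell markers, 6 were also lower without overlap, and of the 11 that were tested 9 had negative and 2 positive log2 fold changes, with a median of −0.42. The most abundant of them, *Abcc9*, overlapped between genotypes, at 233, 289 and 267 CPM against 238, 178 and 176 CPM. The part of these cells in the *Jag2* values was not tested.

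*Jag1* (chr2:136923373-136958693, minus strand), the other Jagged ligand, was at 28.5, 21.2 and 33.8 CPM in ControlΔEC and at 16.7, 24.2 and 14.3 CPM in Wt1KOΔEC. The genotypes overlapped through ControlΔEC replicate 2 and Wt1KOΔEC replicate 2. The log2 fold change was −0.59 ± 0.28 (95% interval −1.23 to 0.05, adjusted p = 0.42). The mural cell markers, summed as above, were highest in ControlΔEC replicate 3 and lowest in Wt1KOΔEC replicate 3, the libraries in which *Jag1* was also highest and lowest, and their part in the *Jag1* values was not tested. Between these extremes the order differed: *Jag1* was higher in Wt1KOΔEC replicate 2 than in ControlΔEC replicate 2, whereas the mural sum was lower (347 against 477 CPM).

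*Dll4* (chr2:119156170-119166443, plus strand), the main Delta ligand of angiogenic ECs, was at 312, 351 and 218 CPM in ControlΔEC and at 266, 316 and 221 CPM in Wt1KOΔEC. Both genotypes spanned nearly the same range. The log2 fold change was −0.13 ± 0.21, and its 95% interval ran from −0.62 to 0.35 (adjusted p = 0.876). *Dll1* (chr17:15587276-15597134, minus strand), a Delta ligand of arterial ECs, was at 23.7, 16.7 and 21.4 CPM against 20.3, 16.3 and 22.0 CPM. Its log2 fold change of −0.08 ± 0.25 had a 95% interval of −0.63 to 0.48 (adjusted p = 0.946). The library protocol does not mark strand, and 27.6% of the exonic bases of *Dll1* also belong to *Fam120b*, which was at 18.4 to 49.7 CPM, so reads of the shared 1369 bases cannot be told apart. *Notch1*, *Dll4* and *Jag1* lie on chromosome 2 with *Wt1*, at 78.5, 14.2 and 31.9 Mb from it. For *Dll4*, 15.61% of exonic bases are shared with *Gm14207*, at 0.694 to 4.30 CPM.

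Among the receptors, *Notch4* (chr17:34783220-34807477, plus strand) had the largest log2 fold change of the family. It was at 325, 428 and 103 CPM in ControlΔEC and at 142, 133 and 130 CPM in Wt1KOΔEC. The 3 Wt1KOΔEC libraries were close together, whereas ControlΔEC replicate 3 was lower than all of them and the other 2 ControlΔEC libraries were higher. The log2 fold change was −1.08 ± 0.41 (95% interval −2.01 to −0.15; unadjusted p = 0.0276, adjusted p = 0.319). Without ControlΔEC replicate 3 it was −1.48 with an adjusted p of 0.0306 and *Notch4* was called, and without ControlΔEC replicate 2 it was −0.66. ControlΔEC replicate 3 held 27211308 counts, against 44779020 and 44736496 for ControlΔEC replicates 1 and 2, and Wt1KOΔEC replicate 3 held 26037324. The part of depth in these values was not tested.

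*Notch1* (chr2:26347915-26406675, minus strand), the receptor through which Dll4 acts in sprouting vessels, was at 642, 761 and 349 CPM in ControlΔEC and at 404, 448 and 356 CPM in Wt1KOΔEC. Here too ControlΔEC replicate 3 was the lowest of all 6 libraries. The log2 fold change was −0.54 ± 0.26 (95% interval −1.13 to 0.06, adjusted p = 0.432), and it was −0.80 without ControlΔEC replicate 3 and −0.30 without ControlΔEC replicate 2. *Notch1* and *Notch4* followed each other over the libraries, with a Pearson r of log2 CPM of 0.976. *Notch1* also had an r of 0.890 with *Dll4* and of 0.806 with *Jag2* over the same 6 libraries, which share their depth and scaling, so these values are a description. The summed macrophage and erythroid markers ordered the ControlΔEC libraries in the same way, at 272, 551 and 182 CPM and at 8698, 14300 and 6563 CPM. In Wt1KOΔEC these sums were 162, 168 and 111 CPM and 7648, 5005 and 8311 CPM. The lymphatic sum had that ControlΔEC order too, whereas the endothelial, mural cell, fibroblast, endocardial, epicardial and cardiomyocyte sums did not. A pair of genes from the macrophage and erythroid lists serves as an example. *Csf1r*, a macrophage receptor, was at 153, 327 and 103 CPM in ControlΔEC and at 72.5, 92.2 and 57.1 CPM in Wt1KOΔEC. *Alas2*, the heme synthesis enzyme of red cell precursors, was at 109, 228 and 80.4 CPM against 62.2, 51.6 and 74.9 CPM. The part of these cell types in the receptor values was not tested. These sums and both genes were chosen for mention after their values were seen.

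*Notch2* and *Notch3* were low in both genotypes. *Notch3* (chr17:32339794-32385893, minus strand) was at 2.77, 2.96 and 4.75 CPM in ControlΔEC and at 3.30, 2.89 and 2.57 CPM in Wt1KOΔEC, with a log2 fold change of −0.26 ± 0.57 (95% interval −1.55 to 1.04, adjusted p = 0.922). It was highest in ControlΔEC replicate 3 and lowest in Wt1KOΔEC replicate 3, as were the summed mural cell markers, whose part in these values was not tested. The order between these extremes was not the same. ControlΔEC replicate 1 had the larger mural sum (613 CPM) and less *Notch3*, and Wt1KOΔEC replicate 1 the smaller sum (391 CPM) and more *Notch3*. *Notch2* (chr3:97920800-98057677, plus strand) was at 7.85, 11.3 and 11.2 CPM against 12.0, 6.18 and 14.6 CPM. Its log2 fold change of 0.11 ± 0.38 (95% interval −0.75 to 0.97, adjusted p = 0.952) turned to −0.05 when the counts were scaled by library size only. The intervals of both genes are too wide to tell a change of either direction from none. The *Notch2* levels had the same order over the 6 libraries as the summed cardiomyocyte markers, which were at 184, 253 and 211 CPM in ControlΔEC and 327, 151 and 336 CPM in Wt1KOΔEC, and the part of those cells in the *Notch2* values was not tested. *Nkx2-5*, a defining cardiomyocyte factor, was at 0 in every ControlΔEC library and at 0, 0.253 and 0.910 CPM in Wt1KOΔEC.

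**Figure D2:**
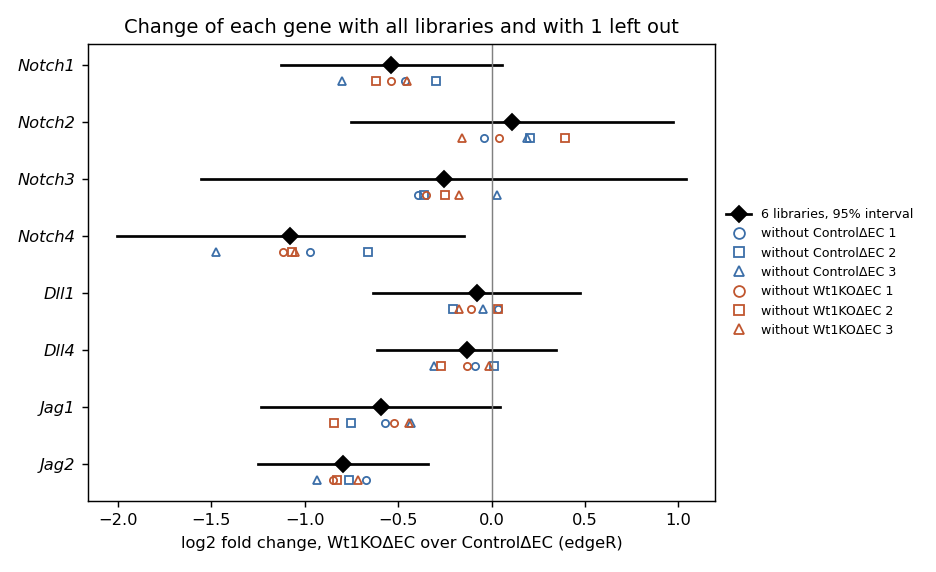
Log2 fold change of Wt1KOΔEC over ControlΔEC for each gene (horizontal axis, edgeR), with all 6 libraries (diamonds, bars for the 95% interval) and after dropping 1 library at a time (open symbols beneath). *Notch4* runs from −1.48 to −0.66 and *Jag2* from −0.94 to −0.67 when a library is left out, whereas the open symbols of *Notch2*, *Notch3*, *Dll1* and *Dll4* lie on both sides of 0.

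The make-up of the ligand pool was compared within libraries, where the scale of a library cancels. *Dll4* made up 80.7, 85.3 and 77.2% of the summed CPM per kb of the 4 ligands in ControlΔEC and 85.0, 86.8 and 83.6% in Wt1KOΔEC, which overlapped. *Jag2* made up 9.53, 8.04 and 8.89% in ControlΔEC and 6.26, 5.22 and 6.14% in Wt1KOΔEC. The *Jag2* share was thus 8.82 ± 0.747% against 5.87 ± 0.567% (SD, n = 3), with no overlap. The log2 ratio of *Jag2* to *Dll4* CPM was −2.23, −2.55 and −2.26 in ControlΔEC and −2.90, −3.19 and −2.90 in Wt1KOΔEC, a difference of −0.65. The exact two-sided permutation test gave p = 0.1 for it, the smallest that 3 libraries against 3 allow, or 0.4 after Benjamini-Hochberg adjustment over the 4 ratios tested. The ratio of *Jag1* to *Dll4* differed by −0.47 (exact p = 0.4) and that of *Jag2* to *Jag1* by −0.18 (exact p = 0.6), both with overlap. The difference in the ratio of *Jag1* to *Dll4* was −0.12 without ControlΔEC replicate 3 and −0.79 without ControlΔEC replicate 2, and that of *Jag2* to *Jag1* was 0.04 without ControlΔEC replicate 2.

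In the receptor pool, *Notch1* made up 54.5, 51.8 and 65.0% in ControlΔEC and 61.9, 66.4 and 60.6% in Wt1KOΔEC. *Notch4* made up 44.3, 46.9 and 30.9% against 35.0, 31.8 and 35.6%. ControlΔEC replicate 3 was again outside the other ControlΔEC libraries, and both shares overlapped between genotypes. *Notch2* and *Notch3* together left little of the pool, at most 3.15% and 1.40% in any library. The log2 ratio of *Notch4* to *Notch1* differed by −0.38 (exact p = 0.4, adjusted p = 0.533), with −0.66 without ControlΔEC replicate 3 and −0.20 without ControlΔEC replicate 2. The receptors summed to 82.8, 103 and 37.7 CPM per kb in ControlΔEC and 45.9, 47.4 and 41.3 CPM per kb in Wt1KOΔEC, and the ligands to 98.0, 104 and 71.5 against 79.1, 92.3 and 66.9 CPM per kb.

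**Figure D3:**
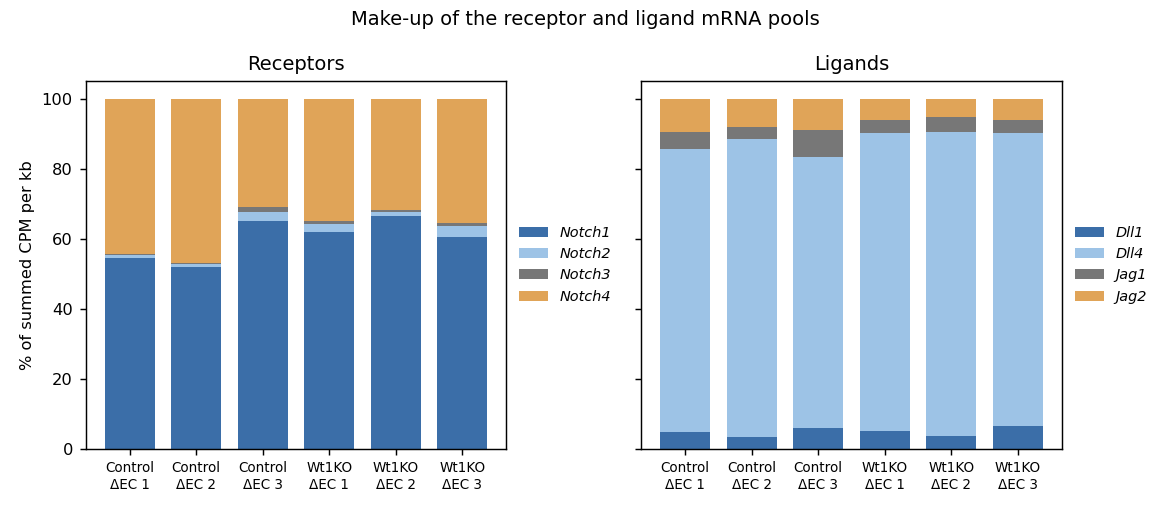
Share of each gene in the summed CPM per kb (vertical axis, %) of the 4 receptors (left) and the 4 ligands (right), with 1 bar for each library. The *Jag2* segment is 8.04 to 9.53% in ControlΔEC and 5.22 to 6.26% in Wt1KOΔEC, and the *Notch4* segment of ControlΔEC replicate 3, at 30.9%, is smaller than in any other library.

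The genes that carry, modify and read the Notch signal were described as a list of 51 further genes, of which 50 were tested and *Dll3* was too low. None was called in edgeR. At an unadjusted p under 0.05, 3 were higher and 5 lower, where 5.96% and 7.12% of all genes were. Without overlap between genotypes, 3 were higher and 6 lower, where 10.3% and 8.97% of all genes were. These shares of the list lie near those of all genes. The median log2 fold change was −0.12. DESeq2 on all genes called 2 of them, *Hes1* higher and *Kat2b* lower. *Hes1*, *Hes5*, *Kat2b*, *Nrarp*, *Cxcr4*, *Efnb2*, *Psenen* and *Aph1c* were chosen for mention after their values were seen.

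Of 11 targets of the pathway, 4 had positive and 7 negative log2 fold changes, with a median of −0.33. *Hes1*, a transcriptional repressor, was at 48.9, 52.7 and 43.0 CPM in ControlΔEC and at 77.8, 83.8 and 91.9 CPM in Wt1KOΔEC. All Wt1KOΔEC libraries were above all ControlΔEC libraries, with a log2 fold change of 0.81 ± 0.16 (adjusted p = 0.114 in edgeR and 2.61e-04 in DESeq2 on all genes). *Nrarp*, a target that feeds back on Notch signalling, was at 67.1, 60.6 and 16.5 CPM against 18.3, 25.8 and 19.0 CPM. As for *Notch4*, ControlΔEC replicate 3 was below every Wt1KOΔEC library, and the log2 fold change was −1.20 ± 0.45 (adjusted p = 0.31). *Cxcr4*, a chemokine receptor, was at 15.3, 11.8 and 15.3 CPM against 26.3, 24.2 and 18.0 CPM, also without overlap (log2 fold change 0.69 ± 0.26, adjusted p = 0.302). A further pair of targets was lower without overlap. *Efnb2*, an ephrin of arterial ECs, was at 68.8, 64.5 and 64.4 CPM against 54.1, 53.5 and 49.2 CPM (log2 fold change −0.33 ± 0.15, adjusted p = 0.395), and *Hes5*, a repressor of the Hes family, was low, at 2.53, 1.40 and 0.902 CPM against 0.230, 0.477 and 0.712 CPM (log2 fold change −1.76 ± 1.08, adjusted p = 0.558).

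The 3 most abundant targets did not pass the test and overlapped between genotypes. *Hey1*, a transcriptional repressor of ECs, was at 142, 94.0 and 141 CPM in ControlΔEC and at 151, 151 and 110 CPM in Wt1KOΔEC (log2 fold change 0.13 ± 0.21). *Unc5b*, a netrin receptor, had a log2 fold change of −0.17 ± 0.18. *Gja5*, the connexin 40 gene of arterial ECs, had one of −0.60 ± 0.33 (adjusted p = 0.497).

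**Figure D4:**
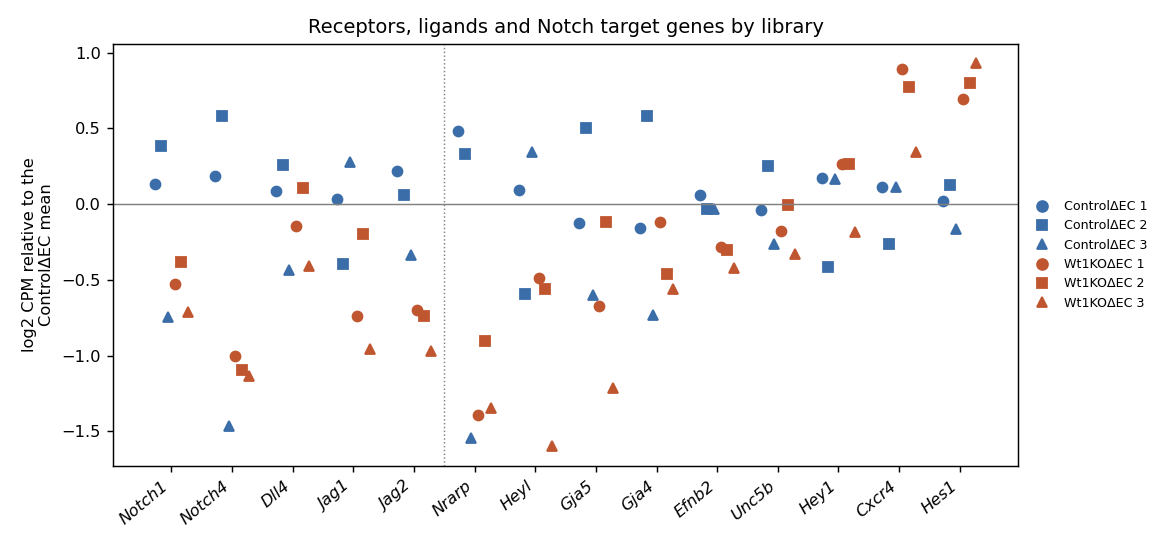
Log2 CPM relative to the ControlΔEC mean (vertical axis) of 5 members (left of the dotted line) and of the targets with a mean of at least 10 CPM (right, ordered by log2 fold change), with 1 point for each library. ControlΔEC replicate 3 is the lowest point of *Notch1*, *Notch4*, *Dll4*, *Gja4* and *Nrarp*, and all Wt1KOΔEC points of *Jag2* and *Efnb2* are below and those of *Hes1* and *Cxcr4* above all ControlΔEC points.

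Cleavage genes were divided, with 6 positive and 4 negative log2 fold changes among 10 genes and a median of 0.05. *Adam10*, the main protease of activated receptors, had a log2 fold change of 0.08 ± 0.19. *Ncstn*, a γ-secretase subunit, had one of 0.03 ± 0.16. *Adam17* was at 119, 111 and 107 CPM in ControlΔEC and at 83.8, 92.2 and 76.6 CPM in Wt1KOΔEC, lower without overlap (log2 fold change −0.42 ± 0.15, unadjusted p = 0.0212, adjusted p = 0.293). The γ-secretase subunits *Psenen* and *Aph1c* did not overlap either, in opposite directions. *Psenen* was at 19.3, 21.1 and 20.2 CPM against 31.2, 27.8 and 27.7 CPM (log2 fold change 0.52 ± 0.20, adjusted p = 0.329). *Aph1c* was at 2.41, 5.84 and 3.26 CPM against 1.15, 1.40 and 0.317 CPM (log2 fold change −1.995 ± 0.83, adjusted p = 0.356).

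In the nuclear complex, 1 of 9 log2 fold changes was positive, with a median of −0.11. *Rbpj*, the DNA-binding partner of the cleaved receptor, had a log2 fold change of −0.05 ± 0.19. *Snw1*, a coactivator, had one of 0.25 ± 0.18 and *Ep300*, an acetyltransferase, one of −0.27 ± 0.21. *Kat2b*, another acetyltransferase, was at 7.78, 10.9 and 7.94 CPM against 4.74, 2.56 and 3.64 CPM, with no overlap (log2 fold change −1.28 ± 0.43, adjusted p = 0.267 in edgeR and 0.0374 in DESeq2 on all genes).

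Of the 5 genes that glycosylate receptors, 1 had a positive log2 fold change, and the median was −0.24. *Mfng*, the Fringe enzyme with the highest CPM here, was at 144, 155 and 102 CPM in ControlΔEC and at 123, 138 and 114 CPM in Wt1KOΔEC (log2 fold change −0.10 ± 0.19). *Poglut1* and *Rfng*, which also add sugars to Notch, had log2 fold changes of −0.24 ± 0.30 and −0.24 ± 0.28.

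Among 11 genes of ubiquitination and trafficking, 4 log2 fold changes were positive, with a median of −0.18. *Mib1*, the ligase that drives ligand endocytosis in the signal-sending cell, was at 46.2, 35.2 and 45.5 CPM in ControlΔEC and at 31.0, 30.9 and 30.8 CPM in Wt1KOΔEC. The genotypes did not overlap, and the log2 fold change was −0.45 ± 0.19 (unadjusted p = 0.042, adjusted p = 0.362). *Numb*, an inhibitor of the receptors, had a log2 fold change of −0.08 ± 0.15 and *Itch*, a ubiquitin ligase, one of −0.22 ± 0.17. Of the further ligands, *Egfl7*, a secreted EC factor that binds Notch, was at 443, 522 and 315 CPM against 440, 405 and 356 CPM (log2 fold change −0.09 ± 0.20). *Dlk1* and *Dner* were low, at a mean of 9.26 and 0.903 CPM over all libraries.

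The genes whose log2 CPM followed each member most closely over the 6 libraries were found among 8472 genes with a mean of at least 10 CPM. They were *Psme3* (r = 0.998) and *Lgals3bp* (r = 0.996) for *Notch4*, *Ypel3* (r = 0.995) and *Arf6* (r = 0.993) for *Notch1*, and *Actn2* (r = 0.993) and *Myh7* (r = 0.989), both sarcomere genes of cardiomyocytes, for *Notch2*. For *Notch3* they were *Prpf18* (r = 0.985) and *Trps1* (r = 0.984). Among the ligands they were *Atp6v0b* (r = 0.998) and *Col18a1* (r = 0.997) for *Dll4*, *Ywhaz* (r = 0.987) and *Fam102b* (r = 0.977) for *Dll1*, *App* (r = 0.987) and *Dnm1l* (r = 0.976) for *Jag1*, and *Pik3r6* (r = 0.991) and *Pdgfd* (r = 0.988) for *Jag2*. With 6 libraries and so many genes compared, an r this high is a description of the same libraries and no measure of a relation.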

How the data were processed

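The deposited values were RSEM expected counts per gene, which the authors gave as whole numbers without normalization for 3 ControlΔEC and 3 Wt1KOΔEC libraries made with SMART-seq2. The submitters' processing notes name STAR 2.7.8a, RSEM 1.3.0 and GRCm38, whereas the paper's methods name GRCm39 with GENCODE vM27. Positions and exonic lengths were taken from GENCODE vM39 on GRCm39. Counts were rounded and analysed in R 4.3.3 with edgeR 4.0.16, using TMM normalization, genes that reached 10 counts in 2 or more libraries, the quasi-likelihood F test and Benjamini-Hochberg adjustment over all genes tested. A call needed an adjusted p-value below 0.05 and a log2 change beyond 0.58 either way. DESeq2 1.42.0, limma 3.58.1 and the settings of the closing section were alternatives, and DESeq2 on all genes was added with the results in view. To check the code, the fits were also run on counts simulated from the means and dispersions of these data. That does not show which tool suits the real data. Intervals cover 95%, SEs divide the fitted log2 change by the square root of F, and ratios used log2 of CPM plus 0.5. Named were all 8 members and *Wt1*, in each pathway subgroup the genes called and the 3 with the highest mean CPM, in marker lists the genes at the top, called or at 0, and for each member the 2 genes with the highest r. Members and lists were chosen with earlier results of these data known. *Rgs5* and *Kcnj8* were named because the paper lists them as arterial genes, with their values known. The same holds for *Col3a1* and *Dcn*, which the paper lists as venous markers. The labels call the replicates biological, but do not say whether a library pooled embryos. The codes of the ControlΔEC libraries all begin with AT and those of the Wt1KOΔEC libraries with AU. The labels do not say what the codes stand for, and a difference between these series cannot be told apart from genotype. The GC box was added after the sequences had been seen.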

Additional observations from a re-analysis of the deposited data

How the results depend on the processing

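The number of genes called, 12 with the settings used, ranged from 5 to 1652: 599 with DESeq2, 767 with DESeq2 on all genes of the table, 432 with the edgeR likelihood ratio test, 296 without a filter, 113 with at least 10 counts in every library, 6 with length and GC offsets and 1652 with an unadjusted p. It ranged from 2, without Wt1KOΔEC replicate 3, to 37, without ControlΔEC replicate 3. Among the 8 members, where none was called, DESeq2, DESeq2 on all genes and the likelihood ratio test each called 1 (*Jag2*, at log2 fold changes of −0.80, −0.80 and −0.80 and adjusted p of 0.0204, 0.0106 and 0.0375), an unadjusted p called 2, and leaving out a library called 0 to 1 (*Notch4* without ControlΔEC replicate 3). Over the alternatives that keep all libraries, the adjusted p ran from 0.0106 to 0.221 for *Jag2* and from 0.0549 to 0.41 for *Notch4*. Of the 50 other pathway genes, DESeq2, the likelihood ratio test and no filter called 1 each, DESeq2 on all genes 2, an unadjusted p 5, and leaving out a library called none (0 to 0). The direction turned for *Notch2* with library size only (−0.049). With a library left out it turned for *Notch2* (range −0.16 to 0.40, at −0.04 without ControlΔEC replicate 1), *Notch3* (−0.40 to 0.03), *Dll1* (−0.21 to 0.037), *Dll4* (−0.31 to 0.015) and the log2 ratio of *Jag2* to *Jag1* (−0.49 to 0.038). Leaving out a library gave −0.80 to −0.30 for *Notch1*, −1.48 to −0.66 for *Notch4*, −0.84 to −0.43 for *Jag1* and −0.94 to −0.67 for *Jag2*. The difference in the *Jag2* share, −2.95 percentage points, was −4.50 for CPM not divided by length and −3.71 with the length of the longest transcript. The order of the ControlΔEC levels per kb kept 6 of 8 places with the longest transcript. Leaving out a library gave −0.66 to −0.20 for the log2 ratio of *Notch4* to *Notch1*, −0.79 to −0.12 for *Jag1* to *Dll4* and −0.76 to −0.56 for *Jag2* to *Dll4*. The cause of these differences was not tested.

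No label says that a shared replicate number marks a litter. The deviations of same-numbered libraries had correlations of 0.057, 0.004 and 0.02, and not every library was closest to its own number. These correlations cannot show whether litters were shared. With the replicate number as a block, 5 genes were called, or 6 with length and GC offsets as well, and the block changed no call of a member.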
